A study of Mus musculus with 2 samples.

Results

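The genes described here encode contractile proteins of the sarcomere and of smooth muscle, together with the non-muscle members of the same families, in mouse sciatic nerve. They were all gene symbols of the troponins (Tnnc, Tnni, Tnnt), numbered myosin light and heavy chains (Myl, Myh), tropomyosins (Tpm) and the actins Acta, Actc and Actg, plus muscle creatine kinase (Ckm), titin (Ttn) and nebulin (Neb). This gave 45 of 22096 symbols. RNA was sequenced from sciatic nerves at postnatal day 7, with 1 library from Tsc1cKO mice and 1 from control mice, both of mixed strain. The names under which the tables were deposited mark both libraries with Dhhcre, Tsc1cKO with TSC1cc and control with TSC1cplus. Read this way, both groups carried Cre under the Dhh promoter, which is active in the Schwann cell lineage, and the control carried a single conditional Tsc1 allele. The number of animals behind each library is not given in the sources used here. With no replicates there is no test, and "higher" and "lower" describe these 2 libraries.

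Striated muscle contracts when calcium binds troponin C, which shifts troponin I and troponin T on tropomyosin and opens actin to the myosin heads. Fast, slow, cardiac and developing fibres use different isoforms of nearly every one of these proteins. Smooth muscle has no troponin and is switched on by phosphorylation of the myosin regulatory light chain, as are the non-muscle myosins found in all cells. Schwann cells use non-muscle actomyosin when they sort and wrap axons. Vessel walls in the nerve hold smooth muscle cells and pericytes, whereas the sciatic nerve runs between skeletal muscles that are not part of it.

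Levels are FPKM, fragment numbers scaled by transcript length and library size, so that genes can be compared per length. Differences are Tsc1cKO minus control after taking log2(FPKM + 1). A gene counts as measured with at least 1 FPKM in either library, and as called with a difference of at least 1, or 2-fold. Of the 12409 measured genes, 624 were called higher, 5.03%, and 380 were called lower, 3.06%. The median difference of all measured genes was 0.20, and 67% were higher and 33% lower by any amount. The ratio of the libraries, Tsc1cKO over control, was lower for longer transcripts. Its median was 1.49 over the 491 genes with transcripts under 1000 bases and 0.971 over the 569 genes of 8000 bases or more, counting genes that reached 1 FPKM in each library. Tsc1 itself was at 2.28 FPKM in Tsc1cKO and 3.76 FPKM in control. The Schwann cell genes Sox10, at 246 FPKM in Tsc1cKO and 212 FPKM in control, and S100b, at 167 and 169 FPKM in the same order, were high in both libraries. Of 7 Schwann cell genes, 3 were higher and 4 lower, 3 of them called lower, with sums of 4327 FPKM in Tsc1cKO and 17289 FPKM in control. In whole nerve, fewer cells of a type and less RNA per cell cannot be told apart.

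Of the 45 contractile genes, 34 were measured, 28 of them higher and 6 lower in Tsc1cKO, with a median difference of 0.60. All 7 that were called belonged to the 28 striated muscle genes, and all 7 were higher. The striated genes summed to 845 FPKM in Tsc1cKO and 398 FPKM in control, 2.13-fold higher, which was 0.174% of all FPKM in Tsc1cKO and 0.0954% in control, leaving out 3 genes without a valid estimate in control. The 4 smooth muscle genes summed to 136 FPKM in Tsc1cKO and 193 FPKM in control. The 7 non-muscle genes summed to 2439 FPKM in Tsc1cKO and 1899 FPKM in control. The plot of levels shows every one of the 45 genes.

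**Figure D1:**
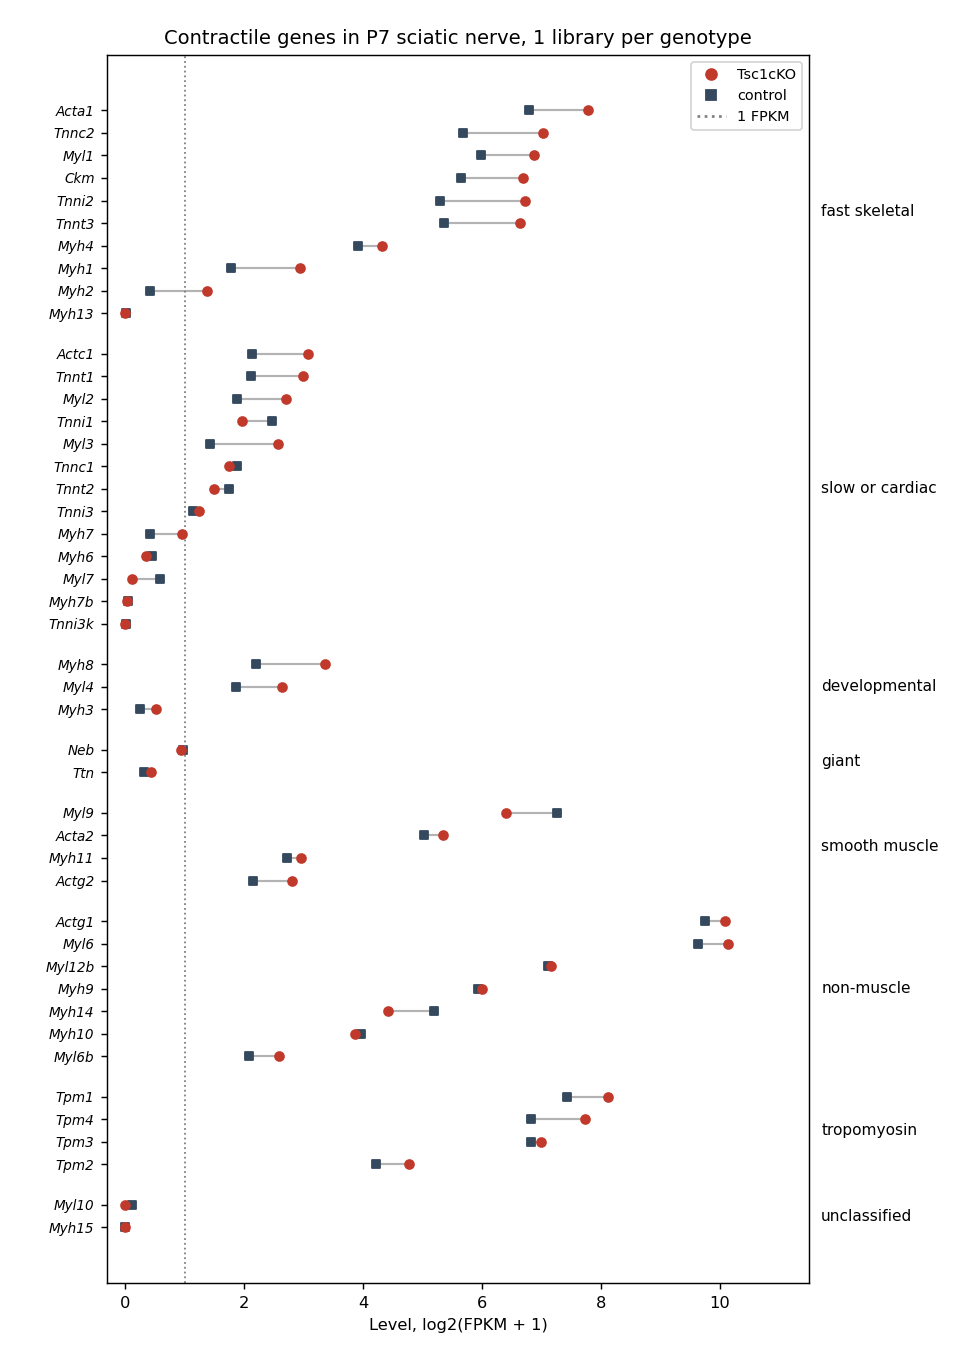
Level of each contractile gene as log2(FPKM + 1) in the Tsc1cKO library (red circles) and the control library (blue squares), by class, with a dotted line at 1 FPKM. The fast skeletal genes with high levels all lie to the right in Tsc1cKO, while Myl9, Myh14 and Tnni1 lie to the left.

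The striated class had 19 measured genes of 28, with 16 higher and 3 lower and a median difference of 0.94, against 0.20 for all measured genes. Myh2 passed the level filter only through Tsc1cKO, and without it 15 of 18 were higher, with a median of 0.91. The 7 called higher, 7 of 19, were Tnnc2, Tnni2, Tnnt3, Ckm, Myh1, Myh8 and Myl3, against 5.03% of all measured genes. After the Tsc1cKO library was divided by the median ratio of 1.18, the 3 fast troponin genes stayed past 2-fold, 15 of the 19 were higher by any amount and the class median was 0.73. On that scale 2.86% of all measured genes were at least 2-fold higher, 4.65% at least 2-fold lower and 49.4% higher by any amount. With differences centred within classes of transcript length, an alternative chosen after the values were seen, only Myh1 and Myh8 of the 7 stayed past 2-fold and the median was 0.58, with 2.59% of all measured genes with a length at least 2-fold higher and 4.52% lower. At 1.5-fold, 14 of the 19 were higher and none lower, against 17.8% and 7.53% of all measured genes, and at 3-fold none was called, against 1.39% and 1.08%.

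The fast skeletal troponin genes had the largest differences of the thin filament. Tnnc2, the calcium-binding subunit of fast fibres, was at 129 FPKM in Tsc1cKO and 50.5 FPKM in control, 2.55-fold higher. Tnni2, the inhibitory subunit, was at 104 FPKM in Tsc1cKO and 38.0 FPKM in control, 2.74-fold higher, the largest difference of the 45 genes at 1.43. Tnnt3, which binds tropomyosin, was at 98.5 FPKM in Tsc1cKO and 40.1 FPKM in control, 2.46-fold higher. The 3 subunits of one complex thus lay within a narrow range of levels in each library. Tnni2 (chromosome 7, 149628373 to 149630310, mm9) and Tnnt3 (149684741 to 149701914) are neighbours, and the span of Tnnt3 overlaps that of Gm14492, so its value is uncertain.

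The slow and cardiac troponin genes were far lower in level than the fast ones, and 3 of the 5 measured were lower in Tsc1cKO. Tnni1, the slow skeletal inhibitory subunit, was at 2.90 FPKM in Tsc1cKO and 4.56 FPKM in control, 1.57-fold lower. Tnnc1, used by slow and cardiac fibres, was at 2.36 FPKM in Tsc1cKO and 2.69 FPKM in control. Tnnt2, the cardiac tropomyosin-binding subunit, was at 1.83 FPKM in Tsc1cKO and 2.36 FPKM in control. These were the 3 striated genes with a lower value in Tsc1cKO among those measured. Tnnt1, the slow skeletal subunit, instead was at 6.90 FPKM in Tsc1cKO and 3.34 FPKM in control, 2.07-fold higher. Tnni3, the cardiac inhibitory subunit, was at 1.35 FPKM in Tsc1cKO and 1.21 FPKM in control, a difference that turned negative after median scaling. Tnni3k, a kinase gene that the name pattern takes in, was listed at 0 in Tsc1cKO and at 0.0107 FPKM in control.

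The fast to slow ratio of troponin levels therefore differed between the libraries. The ratio of Tnni2 to Tnni1 was 35.9 in Tsc1cKO and 8.33 in control, and that of Tnnc2 to Tnnc1 was 54.5 in Tsc1cKO and 18.8 in control. The ratio of Tnnt3 to Tnnt1 was 14.3 in Tsc1cKO and 12.0 in control, a smaller gap. Among troponin I genes, Tnni2 made up 96.1% of the summed FPKM in Tsc1cKO and 86.8% in control. Denominators of these ratios were a few FPKM, and their counting error is unknown because the tables give no counts.

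The myosin heavy chains form the motor of the thick filament, and 6 of the striated genes lie in a cluster on chromosome 11 (66891802 to 67185004, mm9). Myh4, the heavy chain of the fastest fibres, had the highest level of the cluster at 18.8 FPKM in Tsc1cKO and 14.1 FPKM in control, 1.33-fold higher. Myh8, the perinatal heavy chain, was at 9.25 FPKM in Tsc1cKO and 3.61 FPKM in control, 2.56-fold higher. Myh1, of fast IIx fibres, was at 6.64 FPKM in Tsc1cKO and 2.44 FPKM in control, 2.72-fold higher. Neighbouring genes of the same cluster thus differed in ratio. Myh2, of fast IIa fibres, was at 1.59 FPKM in Tsc1cKO and 0.343 FPKM in control and passed the level filter only through Tsc1cKO. Myh3, the embryonic heavy chain, was at 0.437 FPKM in Tsc1cKO and 0.188 FPKM in control, and Myh13, the extraocular one, was listed at 0 in Tsc1cKO and at 0.00617 FPKM in control.

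Myh4 held 49.6% of the summed FPKM of the 9 striated heavy chains in Tsc1cKO and 65.8% in control. Myh8 held 24.3% in Tsc1cKO and 16.8% in control, and Myh1 held 17.5% in Tsc1cKO and 11.4% in control. The order Myh4, Myh8, Myh1 was the same in both libraries, with Myh4 less dominant in Tsc1cKO. Part of these transcripts is alike: of all stretches of 50 bases, 18.9% of Myh4, 21.4% of Myh8, 26.7% of Myh1 and 26.9% of Myh2 also occur in transcripts of another gene. How fragments in such stretches were shared out is not given in the sources used here, so the values of single heavy chain genes are uncertain. The slow heavy chain gene Myh7 was at 0.939 FPKM in Tsc1cKO and 0.344 FPKM in control, Myh6 at 0.274 and 0.368 FPKM and Myh7b at 0.0274 and 0.0394 FPKM in the same order. None of these 3 was measured, and all of their spans overlap those of other entries.

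**Figure D2:**
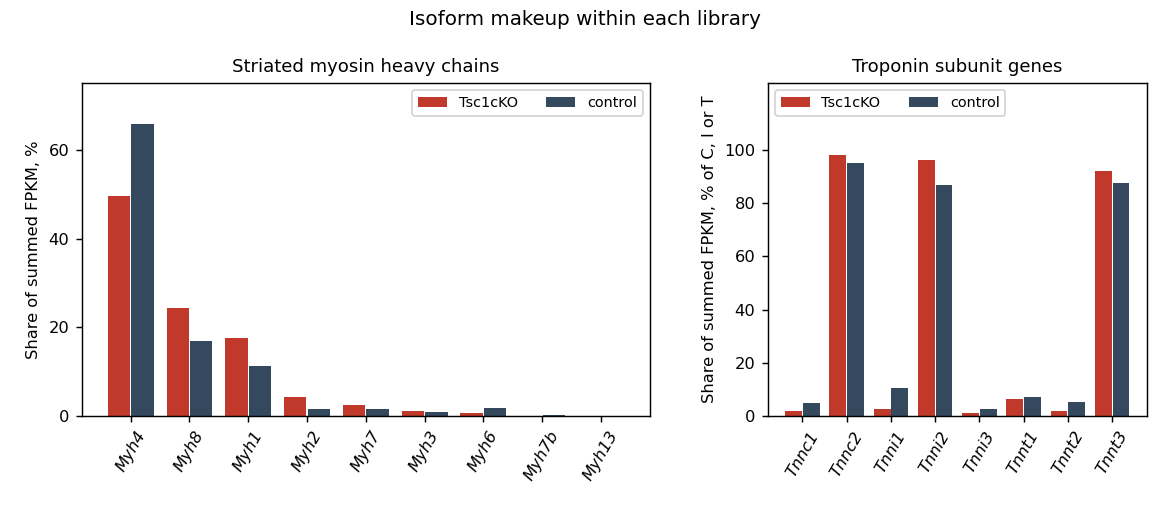
Share of the summed FPKM, in percent, that each gene held among the 9 striated myosin heavy chains (left) and within troponin C, troponin I and troponin T (right), for Tsc1cKO (red) and control (blue). Myh4 held 49.6% of heavy chain FPKM in Tsc1cKO and 65.8% in control, and Tnni2 held 96.1% and 86.8% of troponin I FPKM in the same order.

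The promoters of the 3 most abundant heavy chains of the cluster are shown because these genes share a cluster and were all higher in Tsc1cKO by different ratios. Each sequence is the 250 bases before the RefSeq start site, on the plus strand of GRCm38.p6, for Myh1 at chr11:67199852-67200101, for Myh4 at chr11:67237562-67237811 and for Myh8 at chr11:67276874-67277123. Capitals mark matches to the MEF2 motif, to the CArG box and to TATAAA, searched on both strands. Only CCWWWWWWGG, where W is A or T, was taken as a CArG box, so boxes that vary from it were passed over.
Myh1: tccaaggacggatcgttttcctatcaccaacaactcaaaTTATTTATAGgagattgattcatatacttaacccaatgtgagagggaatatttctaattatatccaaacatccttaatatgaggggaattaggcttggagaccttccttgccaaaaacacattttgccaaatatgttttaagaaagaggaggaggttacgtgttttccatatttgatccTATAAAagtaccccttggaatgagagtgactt
Myh4: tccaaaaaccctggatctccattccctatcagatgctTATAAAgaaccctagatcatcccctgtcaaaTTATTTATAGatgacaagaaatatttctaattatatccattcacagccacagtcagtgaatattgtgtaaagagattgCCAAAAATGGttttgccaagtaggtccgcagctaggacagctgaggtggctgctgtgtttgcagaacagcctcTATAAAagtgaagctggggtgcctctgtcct
Myh8: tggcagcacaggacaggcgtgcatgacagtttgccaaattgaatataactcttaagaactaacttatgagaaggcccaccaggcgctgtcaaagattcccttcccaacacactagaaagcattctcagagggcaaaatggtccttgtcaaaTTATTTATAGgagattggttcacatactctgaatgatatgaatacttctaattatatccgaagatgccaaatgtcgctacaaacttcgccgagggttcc
All 3 windows hold the same 10 letters matching the MEF2 motif, bound by the MEF2 factors of muscle, at positions -211 to -202 in Myh1, -182 to -173 in Myh4 and -99 to -90 in Myh8, counted from the start site. These matches overlap a TATAAA on the other strand. Myh1 and Myh4 also hold a TATAAA beginning at -32 and -31, and only Myh4 of the 3 holds a CArG box, bound by serum response factor. Over all genes, 2.92% of 32851 such windows hold the MEF2 motif, 1.47% the CArG box and 12.4% TATAAA. Windows were found for 40 of the 45 genes, but not for Tnni2, Tnnt3, Actg2, Myh11 and Neb. The striated genes have 29 windows from 25 genes, some with more than 1 window, and these can overlap. Of the 29, 4 hold the MEF2 motif, the 3 shown here and that of Ttn, 5 the CArG box and 8 TATAAA. The E-box CANNTG lies in 25 of the 29 windows against 66.2% of all windows, and CATTCC in 11 against 12.6%.

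The measured striated light chains and the sarcomeric actins were higher in Tsc1cKO. Myl1, the essential light chain of fast fibres, was at 116 FPKM in Tsc1cKO and 62.4 FPKM in control, 1.86-fold higher. Myl3, the essential light chain of slow and ventricular muscle, was at 4.92 FPKM in Tsc1cKO and 1.70 FPKM in control, 2.90-fold higher. Myl2, the regulatory light chain of the same fibres, was at 5.53 FPKM in Tsc1cKO and 2.69 FPKM in control. All 3 thus had higher values, but only Myl3 was called. Myl2, 2.06-fold higher, fell short of 2-fold only after 1 FPKM was added, which makes ratios of genes with low levels smaller. Myl4, of atrial and embryonic muscle, was at 5.20 FPKM in Tsc1cKO and 2.62 FPKM in control, and the atrial Myl7 was at 0.0895 FPKM in Tsc1cKO and 0.509 FPKM in control, below the level filter. Of the 50-base stretches of Myl1, 23.4% also occur in the pseudogene Mylf-ps.

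Acta1, the skeletal actin gene, had the highest level of the striated class at 218 FPKM in Tsc1cKO and 109.6 FPKM in control, 1.99-fold higher and just short of the call. Actc1, the cardiac actin gene, was at 7.46 FPKM in Tsc1cKO and 3.41 FPKM in control. Their ratio to each other, Acta1 over Actc1, was 29.2 in Tsc1cKO and 32.2 in control. Ckm, the creatine kinase that buffers ATP in muscle, was at 102 FPKM in Tsc1cKO and 49.2 FPKM in control, 2.08-fold higher. The giant filament protein genes were below the level filter. Ttn, which spans the sarcomere as a spring, was at 0.345 FPKM in Tsc1cKO and 0.242 FPKM in control. Neb, which lies along the thin filament, was at 0.917 FPKM in Tsc1cKO and 0.955 FPKM in control. Their transcripts, at 106824 and 22489 bases, are the longest of the 45 genes.

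The smooth muscle class had 3 higher genes and 1 lower. None of its 4 genes was called in either direction, against 5.03% called higher and 3.06% called lower of all measured genes, and the median difference was 0.27. Acta2, the actin of vascular smooth muscle, was at 39.5 FPKM in Tsc1cKO and 31.7 FPKM in control. Myh11, the heavy chain that defines smooth muscle, was at 6.74 FPKM in Tsc1cKO and 5.62 FPKM in control. Both differences, 0.31 and 0.23, were close to the median of all genes and became 0.08 and 0.02 after median scaling. Actg2, the actin of visceral smooth muscle, was at 5.98 FPKM in Tsc1cKO and 3.46 FPKM in control.

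Myl9, a regulatory light chain of smooth muscle that non-muscle cells also express, went the other way. It was at 83.3 FPKM in Tsc1cKO and 152 FPKM in control, 1.82-fold lower, the lowest difference of the 45 genes at -0.86. After median scaling the difference was -1.09, past 2-fold. Since Myl9 had the highest level of its class, the class sum was lower in Tsc1cKO with it, at a ratio of 0.704, and higher without it, at 1.28.

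Windows of the actin genes and of Myl9 are shown because the CArG box is the classical element of muscle actin promoters and these genes differed in direction. They are the 250 bases before the start in GRCm38.p6, read along the gene: Acta1 at chr8:123894776-123895025, Actc1 at chr2:114052876-114053125 and Acta2 at chr19:34255374-34255623 on the minus strand, and Myl9 at chr2:156775214-156775463 on the plus strand. Capitals mark the CArG box and TATAAA, and none of the 4 holds the MEF2 motif.
Acta1: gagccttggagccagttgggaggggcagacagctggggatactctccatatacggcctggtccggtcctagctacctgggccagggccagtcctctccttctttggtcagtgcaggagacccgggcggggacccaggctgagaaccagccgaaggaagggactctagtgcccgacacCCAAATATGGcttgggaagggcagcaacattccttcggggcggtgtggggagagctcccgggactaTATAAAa
Actc1: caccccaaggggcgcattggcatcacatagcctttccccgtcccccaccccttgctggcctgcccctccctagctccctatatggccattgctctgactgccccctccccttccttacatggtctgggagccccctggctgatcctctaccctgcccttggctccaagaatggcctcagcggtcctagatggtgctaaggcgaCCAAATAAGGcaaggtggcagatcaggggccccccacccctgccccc
Acta2: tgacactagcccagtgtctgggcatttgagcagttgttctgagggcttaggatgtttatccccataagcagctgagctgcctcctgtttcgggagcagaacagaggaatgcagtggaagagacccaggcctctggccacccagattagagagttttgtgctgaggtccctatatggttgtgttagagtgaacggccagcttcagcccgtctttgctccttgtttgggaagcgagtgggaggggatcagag
Myl9: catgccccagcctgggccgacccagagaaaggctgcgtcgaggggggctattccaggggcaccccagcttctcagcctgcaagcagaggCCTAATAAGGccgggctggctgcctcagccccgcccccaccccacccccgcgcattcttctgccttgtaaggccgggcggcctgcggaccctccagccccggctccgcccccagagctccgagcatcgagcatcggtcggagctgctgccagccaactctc
The CArG box as searched lies at -73 to -64 in Acta1, at -47 to -38 in Actc1 and at -161 to -152 in Myl9. The window of Acta2 holds no exact match, but it holds ccctatatgg and ccttgtttgg, which have a C or G among the middle letters. Such near matches also lie in the other windows shown, ccatatacgg in Acta1, ccctatatgg in Actc1 and ccttgtaagg in Myl9. Acta1 and Actc1, 1.99-fold and 2.19-fold higher in Tsc1cKO, and Myl9, lower in Tsc1cKO, thus all hold the exact CArG box. Of the 8 windows of non-muscle genes, 2 hold the exact box as well, those of Actg1 and Myl6.

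The non-muscle class held the most abundant of the 45 genes, and its levels and differences spread widely. Of the 7, 5 were higher and 2 lower (3 and 4 after median scaling), none was called, and differences ran from -0.78 to 0.52 with a median of 0.06, or -0.17 after median scaling. Actg1, the cytoplasmic gamma actin, was at 1079 FPKM in Tsc1cKO and 858 FPKM in control, higher except when centred by length. Myl6, the essential light chain shared by smooth and non-muscle myosin, was at 1117 FPKM in Tsc1cKO and 790.5 FPKM in control. These were the highest levels of the 45 genes. Actg1 shares 56.7% of its 50-base stretches with transcripts of other genes, mainly the pseudogene Gm12715, and Myl6 shares 18.5%. Its relative Myl6b was at 5.04 FPKM in Tsc1cKO and 3.22 FPKM in control, and Myl12b, a regulatory light chain, was at 141 FPKM in Tsc1cKO and 138 FPKM in control, a difference of 0.04, or -0.20 after median scaling. Myl12a is not analysed here.

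The 3 non-muscle heavy chains differed among themselves. Myh9, of non-muscle myosin IIA, was at 62.7 FPKM in Tsc1cKO and 59.9 FPKM in control. Myh10, of myosin IIB, was at 13.6 FPKM in Tsc1cKO and 14.6 FPKM in control. Both were thus at almost equal levels in the libraries, and the difference of Myh9, 0.06, was -0.17 after median scaling. Myh14, of myosin IIC, was at 20.3 FPKM in Tsc1cKO and 35.6 FPKM in control, 1.76-fold lower, and its difference of -0.78 became -1.01 after median scaling. Among Myh9, Myh10, Myh11 and Myh14, Myh14 held 19.6% of the summed FPKM in Tsc1cKO and 30.8% in control.

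All 4 tropomyosin genes were higher in Tsc1cKO, with a median difference of 0.62, although Tpm3 turned lower after either scaling and when centred by length. Tropomyosin genes can make muscle and non-muscle isoforms, which a value per gene does not separate. Tpm1 was at 278 FPKM in Tsc1cKO and 171 FPKM in control, and Tpm4, mainly a non-muscle gene, was at 210.2 FPKM in Tsc1cKO and 112 FPKM in control, 1.88-fold higher. Tpm2 was at 26.2 FPKM in Tsc1cKO and 17.6 FPKM in control. Tpm3 was at 127 FPKM in Tsc1cKO and 113 FPKM in control, a difference of 0.17, or -0.07 after median scaling. Of the 50-base stretches of Tpm3, 62.4% also occur in Tpm3-rs7. Myh15 and Myl10 were put in no class. Myh15 was listed at 0 in both libraries, and Myl10 at 0 in Tsc1cKO and at 0.0864 FPKM in control.

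Most other skeletal muscle genes of 2 further lists, none of them among the 45, were higher in Tsc1cKO. Of 26 further sarcomere genes, 19 were measured, with a median of 0.73. All 19 were higher, before and after median scaling, against 67% of all measured genes, and 5 were called, against 5.03%. Their sums were 231 FPKM in Tsc1cKO and 114 FPKM in control. Of the 19, 6 passed the level filter only through Tsc1cKO and so had to be higher, 1 of them called. Among the 13 that reached 1 FPKM in each library, 13 were higher and 4 called. Mylpf, the fast skeletal regulatory light chain, was at 145 FPKM in Tsc1cKO and 71.0 FPKM in control. Tcap, which caps titin, was at 5.99 FPKM in Tsc1cKO and 2.10 FPKM in control, and Smpx was at 3.95 FPKM in Tsc1cKO and 1.37 FPKM in control. Tmod1, which caps actin filaments in muscle and other cells, had the largest difference, at 5.64 FPKM in Tsc1cKO and 1.002 FPKM in control, and its span overlaps that of Tstd2. Des, the intermediate filament of muscle, was at 17.8 FPKM in Tsc1cKO and 9.66 FPKM in control.

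Of 23 genes for muscle calcium handling and energy supply, 20 were measured, 17 higher and 3 lower, or 13 higher and 7 lower after median scaling. The 2 called higher stand against 5.03% of all measured genes. The median was 0.48, with sums of 265 FPKM in Tsc1cKO and 197 FPKM in control. The level filter fixed the direction of 4 of the 20, with 2 measured only through Tsc1cKO and 2 only through control, and of the 16 others 15 were higher. Sln, a regulator of the calcium pump, was at 7.95 FPKM in Tsc1cKO and 2.27 FPKM in control. Pgam2, a glycolytic enzyme of muscle, was at 18.3 FPKM in Tsc1cKO and 8.40 FPKM in control. Atp2a2, a calcium pump gene that many cell types express, was at 51.6 FPKM in Tsc1cKO and 46.0 FPKM in control. Cox8b, a nuclear gene for a mitochondrial protein, was at 30.5 FPKM in Tsc1cKO and 21.03 FPKM in control. Atp2a2 turned lower after median scaling. The 3 lower genes were Ryr1, the calcium release channel, at 0.792 FPKM in Tsc1cKO and 1.35 FPKM in control, Cacna1s, its voltage sensor, at 0.806 and 1.46 FPKM, and Casq2, a calsequestrin, at 10.07 and 10.9 FPKM in the same order. Ryr1 and Cacna1s passed the filter only through control. Genes of muscle precursors and the endplate were low: 4 of 14 were measured, 2 higher and 2 lower, 1 of the higher ones through Tsc1cKO only, with 1 of the 14 listed at 0 in Tsc1cKO and 3 in control. Myog, a myogenic factor, was at 1.15 FPKM in Tsc1cKO and 0.552 FPKM in control, and Musk, the endplate kinase, was at 4.28 FPKM in Tsc1cKO and 3.07 FPKM in control. Whether muscle fibres attached to the dissected nerves had a part in the striated values was not tested.

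**Figure D3:**
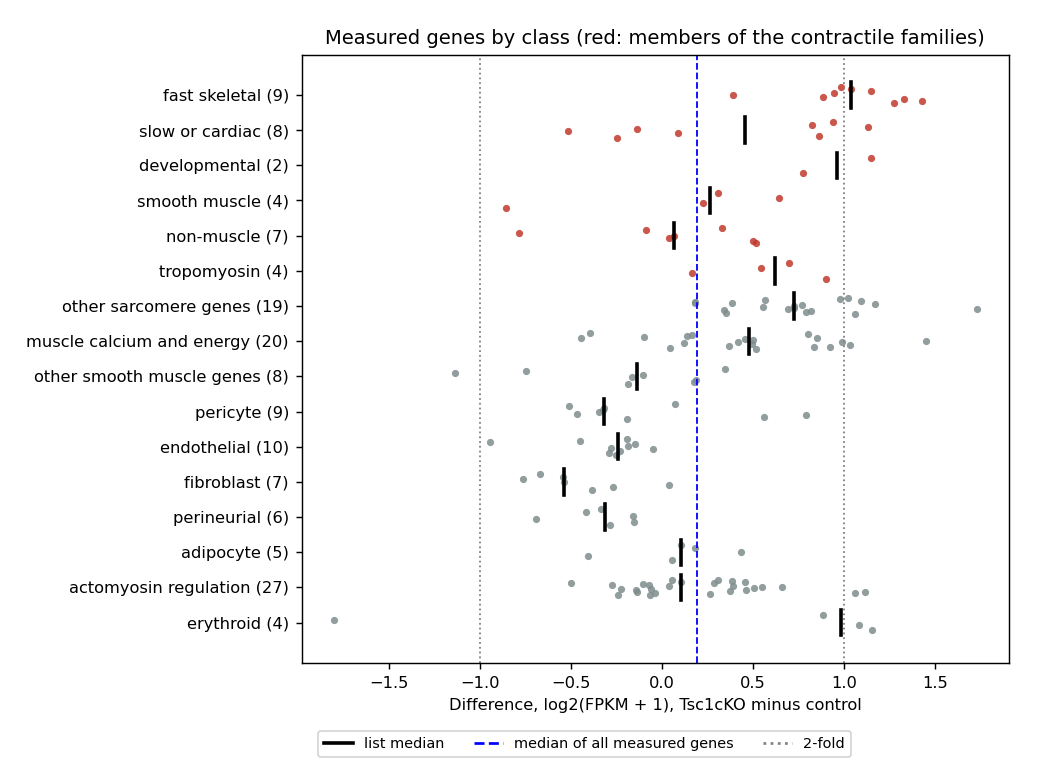
Difference of each measured gene on the log2(FPKM + 1) scale, Tsc1cKO minus control, by class or list, with the number measured in brackets. Black bars mark list medians, a dashed line the median of all measured genes (0.20) and dotted lines 2-fold. The Schwann cell genes and the genes of muscle precursors and the endplate are not plotted. Fast skeletal genes center on 1.04 and other sarcomere genes on 0.73, whereas smooth muscle genes center on 0.27 and endothelial genes on -0.24.

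Of 77 striated and other muscle genes, 47 reached 1 FPKM in each library. Their median ratio was 2.05 for 14 genes with transcripts under 1000 bases, 1.99 for 15 genes of 1000 to under 2000 bases, 1.81 for 9 genes of 2000 to under 4000 bases and 1.57 for 9 genes of 4000 to under 8000 bases. Over all genes the medians of these classes were 1.49, 1.32, 1.18 and 1.06. The muscle median thus lay above the median of all genes in each of these classes, and both medians were lower in the longer classes. Of the 47 genes, 37 lay above the median of their class and 10 did not, and of the 18 striated members among them 14 lay above it and 4 did not. Tnni2, of 768 bases, was 2.74-fold higher, and Tnnc1, of 721 bases, was 1.14-fold lower. Spearman's rho between length and ratio was -0.29 across 10411 genes, -0.11 across the 47 muscle genes and 0.022 across the 18 striated members, as a description across genes of the same 2 libraries.

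**Figure D4:**
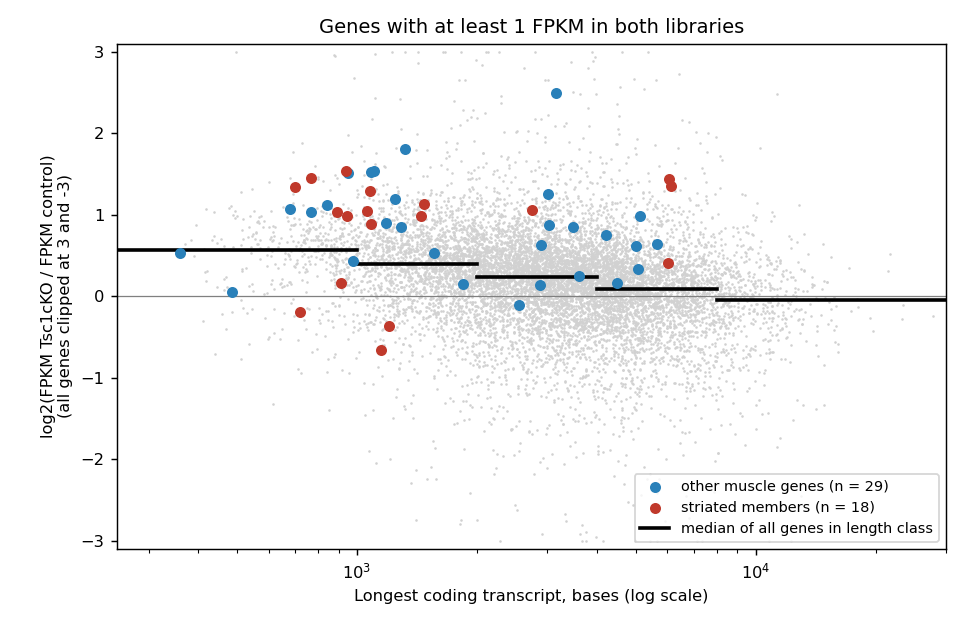
Log2 ratio of FPKM, Tsc1cKO over control, against the length of the longest coding transcript on a log scale. Striated members (red, n = 18) and other muscle genes (blue, n = 29) are drawn over all genes with a length (grey). Black bars mark the median of all genes in each length class. Most muscle genes lie above the bar of their class, and Tnni1, Tnnt2, Tnnc1 and Casq2 lie below 0.

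Most measured genes of the further lists for vessel wall cells were lower in Tsc1cKO, against 33% of all measured genes. The 4 smooth muscle genes described above mostly went the other way, with 3 higher and 1 lower. Of 12 other smooth muscle genes 8 were measured, 3 higher and 5 lower, or 1 higher and 7 lower after median scaling. The 1 called lower stands against 3.06% of all measured genes. The median was -0.14, with sums of 306 FPKM in Tsc1cKO and 456 FPKM in control. Smtn, encoding smoothelin, was at 99.9 FPKM in Tsc1cKO and 221 FPKM in control, 2.21-fold lower, and held most of the gap between these sums. Tagln, encoding transgelin, was at 30.4 FPKM in Tsc1cKO and 51.5 FPKM in control, and its span overlaps that of Pcsk7. Both were lower beside Myl9, whereas Cnn1, the calponin of smooth muscle, was at 1.01 FPKM in Tsc1cKO and 0.577 FPKM in control and passed the filter only through Tsc1cKO. Of 9 pericyte genes, 6 were lower and 3 higher, with a median difference of -0.32. Their sums were 273 FPKM in Tsc1cKO and 223 FPKM in control, and Mcam weighed most in both. In this list Rgs5 was at 35.1 FPKM in Tsc1cKO and 50.3 FPKM in control, and Mcam was at 163 FPKM in Tsc1cKO and 93.5 FPKM in control. All 10 endothelial genes were lower, with sums of 191 FPKM in Tsc1cKO and 229 FPKM in control. The part of vessel cell content in the values of Myl9 and the smooth muscle genes was not tested.

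Markers of other tissues around or within the nerve went different ways beside the striated genes. Of 7 fibroblast genes 6 were lower, with sums of 6592 FPKM in Tsc1cKO and 10125 FPKM in control, and all 6 perineurial genes were lower, with sums of 109.6 FPKM in Tsc1cKO and 138 FPKM in control. Of 6 adipocyte genes, 5 were measured, 4 of them higher, or 1 after median scaling, with sums of 353 FPKM in Tsc1cKO and 279 FPKM in control. Of 5 red cell genes 4 were measured, 3 of them higher, with sums of 913 FPKM in Tsc1cKO and 477 FPKM in control, a ratio of 1.91 beside 2.13 for the striated genes. Alas2, of haem synthesis, was at 20.9 FPKM in Tsc1cKO and 8.83 FPKM in control. The globin gene Hba-a1 was at 663 FPKM in Tsc1cKO and 358 FPKM in control, and Hbb-b2 was at 229 FPKM in Tsc1cKO and 107 FPKM in control. Hbb-b1 was at 0.00083 FPKM in Tsc1cKO and 2.49 FPKM in control, measured only through control, and Hba-a2 was near 0 in both libraries. Globin genes have near-identical copies with overlapping spans, so their single values are uncertain. The part of blood content in the striated values was not tested.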

How the data were processed

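Sciatic nerve RNA was extracted with Trizol and made into libraries with an Illumina TruSeq kit, per the labels' protocols. The deposited values are FPKM per gene with a status, with a table for each library, as the headers of the deposited tables show. Per the submitters' processing notes, CASAVA, TopHat, Cufflinks and mm9 were used, with no role or version named. No source used here gives the annotation, read length or use of strand. FPKM are not counts and depth is unknown. Among 613 genes on 1 entry, above 0 and below 0.05 FPKM in both libraries, no ratio recurred often. The most common, 0.918, was found in 5 genes, with 22 genes within 1% of it. FPKM summed to 492760 in Tsc1cKO and 416853 in control.

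Entries of 1 symbol were summed, 3 genes with a failed status in control were left out, and each contractile symbol stood on 1 entry. Differences used a pseudocount of 1, a level filter of 1 FPKM and a rule of size of 2-fold, since 1 library per group allows no test. Every member could be named, and from each other list the 4 measured genes with the largest absolute difference and the 2 with the highest mean. Sox10 and S100b, named to check the tissue, and Hba-a2, Ryr1, Cacna1s and Casq2 were named outside this rule after their values were seen. Members and lists were chosen with earlier results of these data known. Alternatives were pseudocounts of 0.1 and 5, median ratio scaling (7844 genes that reached 5 FPKM in each library), upper quartile scaling, other filters and thresholds, and, added later, centring within 5 length classes. Lengths and shared stretches of 50 bases came from GENCODE M21 transcripts, used for no coordinates. Promoters came from RefSeq GRCm38.p6. Coordinates of genes are those of the tables, in mm9. Calculations were tested on simulated data. Python 3.11.15, pandas 2.3.3, numpy 2.4.6 and matplotlib 3.10.9 were used.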

Additional observations from a re-analysis of the deposited data

How the results depend on the processing

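With 1 library per group no replicate could be left out. No paired analysis was possible because each group has a single library. The number of striated genes called higher, 7, was 11 with a pseudocount of 0.1, 3 with a pseudocount of 5, 3 after median ratio scaling, 3 after upper quartile scaling, 14 at 1.5-fold, 0 at 3-fold and 2 when centred within length classes. None was called lower under these settings. Of all measured genes 7.48% were called higher with a pseudocount of 0.1, 2.28% with a pseudocount of 5 and 3.17% after upper quartile scaling. The striated median of 0.94 was 1.03 and 0.57 with pseudocounts of 0.1 and 5, 0.73 and 0.78 after median ratio and upper quartile scaling, 0.65 without a filter, 0.99 with a filter of 5 FPKM and 0.58 when centred by length. The ratio of striated sums, 2.13, was 1.80 and 1.87 after median ratio and upper quartile scaling and 2.18 without Acta1.

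Of the smooth muscle genes, 1 (Myl9) was called lower after median ratio or upper quartile scaling and when centred by length, and 1 was higher and 1 lower at 1.5-fold. The smooth muscle median of 0.27 was 0.29 and 0.21 with pseudocounts of 0.1 and 5, 0.050 and 0.094 after median ratio and upper quartile scaling and 0.12 when centred by length. The ratio of sums, 0.704, was 0.597 and 0.618 after scaling and 1.28 without Myl9. Of the non-muscle genes, 1 (Myh14) was called lower after median ratio scaling and at 1.5-fold. The non-muscle median of 0.06 was 0.066 with a pseudocount of 0.1, -0.17 and -0.12 after median ratio and upper quartile scaling and -0.035 when centred by length. The ratio of sums, 1.28, was 1.09 and 1.13 after scaling and 1.31 without Actg1. The cause of these shifts was not tested beyond what each setting changes. The sign of Tnni3, Myh9, Myl12b and Tpm3 turned under both scalings and, with that of Actg1, when centred by length. Depth is unknown, so counting error of genes at a few FPKM cannot be given.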

Other observations

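A list of 27 genes, most of which regulate actin filaments and non-muscle myosin, had a median difference of 0.11, with 16 higher and 11 lower. All were measured, and the list also holds the lamin gene Lmna and the beta actin gene Actb. After median scaling the median was -0.11, with 13 higher and 14 lower. The 2 called at least 2-fold higher of the 27 stand against 5.03% of all measured genes. Lmna, encoding lamins A and C, was at 381 FPKM in Tsc1cKO and 175 FPKM in control, and Tagln2, encoding transgelin-2, was at 169 FPKM in Tsc1cKO and 80.7 FPKM in control. The filament-severing gene Cfl1 was at 1249 FPKM in Tsc1cKO and 788 FPKM in control, and the profilin gene Pfn1 was at 538 FPKM in Tsc1cKO and 366 FPKM in control. The beta actin gene Actb was at 873 FPKM in Tsc1cKO and 704 FPKM in control, a ratio close to that of Actg1.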
